A study of Ovis aries with 16 samples.

Results

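The animals described here were the 8 adult Merino male sheep kept on the high diet, split by the weight of their testes. They were ranked by testis weight in the study's table of traits, and the 4 sheep with the heaviest testes were compared with the 4 with the lightest. These 8 sheep were part of 16, of which the other 8 were kept on the low diet. Rations on the high diet aimed at a 10% rise in body mass within 65 days, and those on the low diet aimed at an equal loss. All were sexually mature males of 1 breed, each housed and fed alone. RNA was extracted from pooled tissue of the top, middle and bottom of the right testis, and 1 library was sequenced per sheep. From heaviest to lightest, the heavier class held sheep H8, H2, H5 and H4, and the lighter class held H1, H3, H6 and H7, where H stands for high diet and the number is the replicate number of the labels. H4 and H1 were the sheep on either side of the dividing line. The classes were chosen by testis weight, so the weight itself is no result here, and its values are not given.

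Most of the adult testis consists of germ cells at successive stages of sperm formation, which divide by mitosis as spermatogonia, pass through meiosis as spermatocytes and reshape into sperm as spermatids. They are nursed by Sertoli cells inside the tubules, enclosed by contractile peritubular myoid cells and a basement membrane, and supported by testosterone from Leydig cells between the tubules. In bulk tissue, fewer cells of a type and less RNA per cell cannot be told apart.

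The deposited values are read counts scaled to a common library total (CPM) for 25197 genes, and whole reads could be recovered from them. The 8 high diet libraries held between 9552149 and 18230076 reads (median 13997249.5), and 3 reads were worth between 0.165 and 0.314 CPM. Levels given below are scaled CPM, which is CPM divided by the trimmed-mean (TMM) factor of the library, a correction for differences in composition between libraries. Differences are heavier minus lighter on the log2(scaled CPM + 1) scale, on which differences of low genes come out too small. The germ cell markers DDX4, LDHC and SYCP3 were found in all 8 libraries, with lowest levels of 509, 420 and 9.41 scaled CPM. Symbols were known only for 1761 of the 25197 genes, those the study listed as differing between diets, so each gene list below covers its diet-responsive members and not its whole pathway.

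The question of this comparison was whether well-fed sheep with heavier and with lighter testes differed in testicular gene expression. Of 10783 genes that had more than 5 CPM in 4 or more of these libraries, none passed an adjusted p under 0.1 with a ratio of mean CPM above 1.5, so 0% were called in either direction. The smallest Benjamini-Hochberg adjusted p in limma was 0.736, and the smallest unadjusted p was 0.0014. At an unadjusted p under 0.05, limma gave 263 genes (2.44%), a smaller share than this threshold passes on average without any difference. Of these, 79 (0.733%) were higher and 184 (1.71%) lower in the heavier testes. All 4 heavier testes lay above all 4 lighter ones for 61 genes (0.566%) and below them for 56 genes (0.519%). The quasi-likelihood test of edgeR on recovered reads called 0 genes, with 228 at an unadjusted p under 0.05. DESeq2 called 2 genes, with 375 at an unadjusted p under 0.05. Both of the genes that DESeq2 called lack a symbol and are described below.

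This absence of calls does not show that the classes were alike. The median half-width of the 95% confidence interval was 0.72 on the log2 scale, and for 5054 genes (46.9%) the interval lay within a 2-fold difference in either direction. For the other genes the interval reached beyond 2-fold on at least 1 side, so a difference of that size was not excluded. Differences beyond 2-fold were estimated for 326 genes, of which 23 were higher and 303 lower in the heavier testes. Over all genes tested the median difference was 0.04, with 5767 genes higher and 5016 lower.

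**Figure D1:**
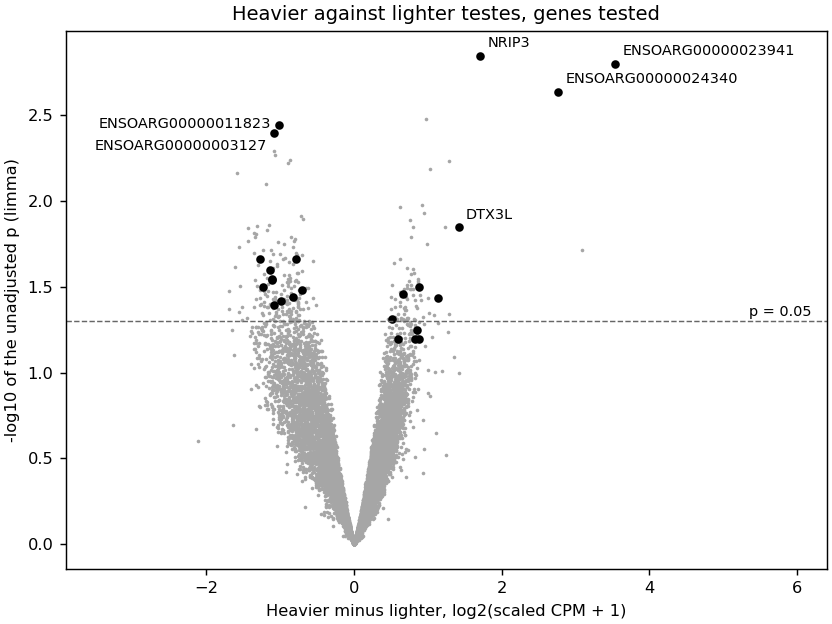
Log2 difference between heavier and lighter testes (horizontal axis) against −log10 of the unadjusted limma p (vertical axis) for the 10783 genes tested, 1 point per gene, with the named genes of smallest p (10 with a symbol and 2 without in each direction) in black and 6 of them labelled. The points reach further to the left than to the right, apart from 3 points at the far right that include ENSOARG00000023941 and ENSOARG00000024340, and none passed the adjusted threshold.

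NRIP3, named for its binding to nuclear receptors, had the smallest p of all genes tested. Its level in the heavier testes was 37.0 in H8, 43.6 in H2, 48.4 in H5 and 23.6 scaled CPM in H4. In the lighter testes it was 4.54 in H1, 13.3 in H3, 18.5 in H6 and 10.6 in H7. All 4 heavier testes were above all 4 lighter ones, and the gap lay between H4 and H6. The difference was 1.71 (95% interval 0.83 to 2.59, limma unadjusted p = 0.0014, adjusted p = 0.736).

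DTX3L, an E3 ubiquitin ligase that works with a PARP partner in the response to DNA damage and interferon, showed a like separation. It stood at 28.4, 35.9, 31.5 and 16.02 scaled CPM in H8, H2, H5 and H4, and at 2.60, 14.4, 14.5 and 12.8 in H1, H3, H6 and H7. The classes did not overlap, but H4 was close to the lighter testes and H1 was far below all others. The difference was 1.42 (95% interval 0.35 to 2.48), with a limma unadjusted p of 0.0143.

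PI3, the elastase inhibitor elafin, was low in every library. It measured 6.65, 5.91, 7.71 and 6.23 scaled CPM in H8, H2, H5 and H4 against 4.37, 4.33, 3.88 and 4.65 in H1, H3, H6 and H7. The classes were again separate, by a difference of 0.52 (95% interval 0.00 to 1.04).

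ADAMTS6, a secreted metalloprotease, was 83.6, 67.0, 69.5 and 43.2 scaled CPM in H8, H2, H5 and H4. In H1, H3, H6 and H7 it was 49.2, 32.9, 48.1 and 33.8. Here H4 lay inside the range of the lighter testes, and the difference was 0.66 (95% interval 0.06 to 1.26). PFDN1, a prefoldin subunit that hands unfolded actin and tubulin to the folding machinery, differed by 0.88, and GRM7, a metabotropic glutamate receptor, by 1.13. In both, the classes overlapped and H8 held the highest level, at 145 and 19.9 scaled CPM. The other genes with a symbol and the smallest p among those higher were ZNF572, ZNF613, C17orf105 and C7, a component of the terminal complement complex. Their differences lay between 0.59 and 0.88, and each missed an unadjusted p of 0.05 in limma.

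After NRIP3, the smallest p belonged to a pair of genes without a symbol, which were the genes called by DESeq2. ENSOARG00000023941 was 1808 in H8, 302 in H2, 3828 in H5 and 3313 scaled CPM in H4, against 249.5, 246 and 154 in H1, H3 and H6 and 38.9 in H7. ENSOARG00000024340 was 1812, 389, 3768 and 3283 scaled CPM in H8, H2, H5 and H4, against 399.5, 359, 245 and 115 in the lighter testes in the order H1, H3, H6 and H7. For both, 3 of the heavier testes stood well above every other library, whereas H2 was near the lighter ones, and for the second gene H2 lay below H1. The differences were 3.54 (95% interval 1.69 to 5.38) and 2.76 (95% interval 1.24 to 4.29), with a limma adjusted p of 0.736 for each. DESeq2 gave 3.74 (adjusted p = 0.000813) and 3.03 (adjusted p = 0.0031). The pair had nearly equal levels in each of the 3 high libraries, and whether the counts of one include reads of the other was not tested.

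Among the genes lower in the heavier testes, CYP26B1, an enzyme that breaks down retinoic acid, had the smallest p of those with a symbol. It was 9.69, 11.3, 12.7 and 15.4 scaled CPM in H8, H2, H5 and H4, and 14.1, 27.1, 18.6 and 30.0 in H1, H3, H6 and H7. The classes overlapped by 1 pair, since H4 was above H1. The difference was −0.78 (95% interval −1.42 to −0.14, limma unadjusted p = 0.0218).

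LTBP4, which holds latent TGF-beta in the matrix and helps to build elastic fibres, measured 3.47, 5.84, 3.18 and 7.17 scaled CPM in H8, H2, H5 and H4. It measured 5.80, 21.5, 6.97 and 17.6 in H1, H3, H6 and H7. Only H3 and H7 of the lighter testes stood apart from the heavier ones. The difference was −1.11 (95% interval −2.08 to −0.14).

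DAAM2, a formin that shapes actin downstream of Wnt signals, was 5.09, 7.96, 4.26 and 21.2 scaled CPM in H8, H2, H5 and H4. Its values in H1, H3, H6 and H7 were 21.3, 21.7, 11.6 and 32.6. H4 had the level of the lighter testes, and the other 3 heavier testes were below all of them. The difference was −1.27 (95% interval −2.31 to −0.23).

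The remaining genes named by smallest p were TBCD, a tubulin folding cofactor, KANK2, an adaptor of the actin cytoskeleton, CACNA1S, a voltage-gated calcium channel of skeletal muscle, MARCKSL1, an actin-binding protein, NKIRAS2, a regulator of NF-kappa-B, SEMA4D, a semaphorin, and C1QTNF1, a secreted protein. Their differences lay between −1.23 and −0.70, with limma unadjusted p between 0.0252 and 0.0405. The classes did not overlap for MARCKSL1 and NKIRAS2, although the gap for NKIRAS2 was only from 5.61 in H2 to 5.71 scaled CPM in H1. Of genes without a symbol, ENSOARG00000011823 was at 2.30 to 5.07 scaled CPM in the heavier and 7.69 to 10.1 in the lighter testes, and its difference was −1.02 (95% interval −1.63 to −0.42). ENSOARG00000003127 was at 10.6 to 18.3 in the heavier and 17.2 to 34.5 in the lighter testes, with a difference of −1.09 (95% interval −1.74 to −0.43).

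**Figure D2:**
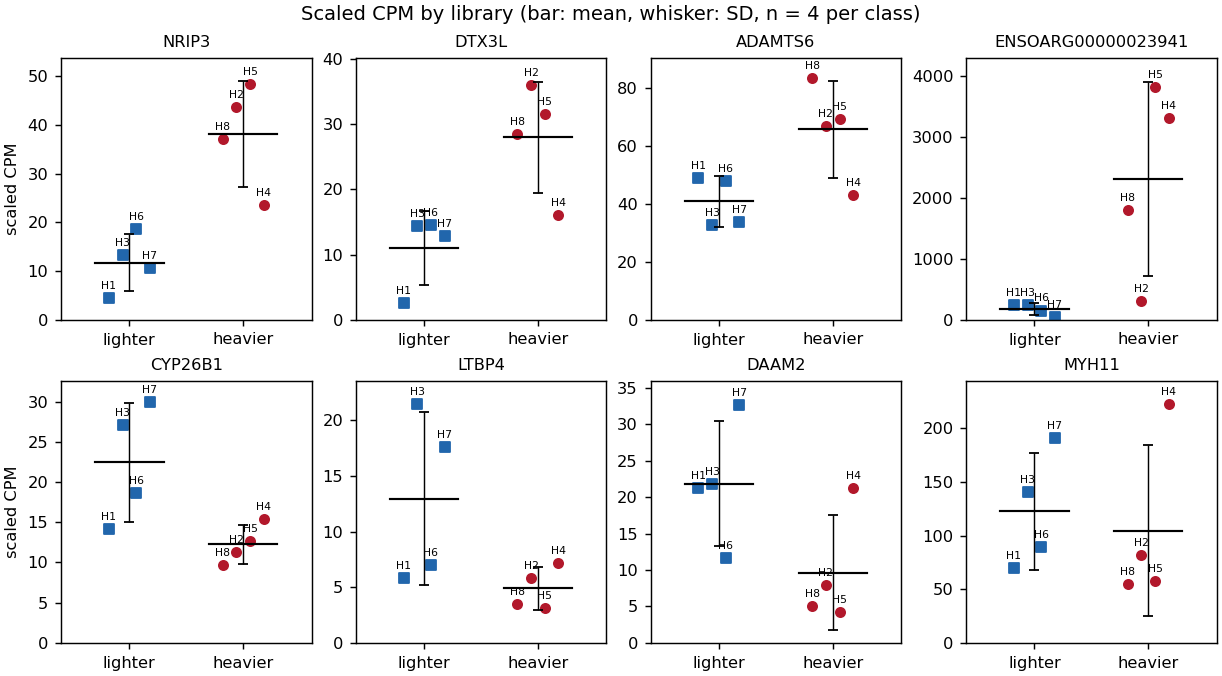
Scaled CPM of 8 of the named genes in each library (vertical axes, linear and starting at 0), with lighter testes as blue squares and heavier testes as red circles, bars for means and whiskers for SD (n = 4 per class). NRIP3 and DTX3L show separate classes, H4 has the lowest NRIP3, DTX3L and ADAMTS6 levels of the heavier testes and the highest MYH11 level of all, and ENSOARG00000023941 is high in H5, H4 and H8 only.

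Most of the variance among the libraries lay along 1 direction, on which the classes overlapped. The first principal component (PC1) of the 10783 genes held 71.8% of the variance, against 10.6% for the second and 4.59% for the third. Scores on PC1 were 80.0 in H8, −6.88 in H2, 53.2 in H5 and −42.0 in H4 for the heavier testes, and 14.9 in H1, −51.2 in H3, 16.8 in H6 and −64.7 in H7 for the lighter ones. H8 and H5 lay at one end, while H4, also of the heavier class, lay at the other end with H3 and H7. The heaviest sheep, H8, had the highest score and the lightest, H7, the lowest. The means differed by 42.2, and an exact permutation test, two-sided, gave p = 0.286 (adjusted p = 0.490 over 8 measures of the libraries). The smallest p that 4 against 4 sheep allow in this test is 0.0286.

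The second component gave an exact permutation p of 0.971 and the total of reads 0.429. On the third the heavier testes scored 2.13 in H8, 17.9 in H2, 3.60 in H5 and 6.995 in H4, above every lighter testis except H6 at 3.71 (exact permutation p = 0.0857, adjusted p = 0.490). Genes with CPM above 1 numbered between 12698 and 14253 in the heavier and between 13773 and 14627 in the lighter testes (exact permutation p = 0.229). H8 had the fewest, H5 came next, and these libraries also had the lowest TMM factors, 0.775 and 0.890. Of all genes tested, 5758 (53.4%) had a correlation with PC1 beyond 0.8 in size over the 8 libraries, which share depth and composition with the score, so these values are a description.

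**Figure D3:**
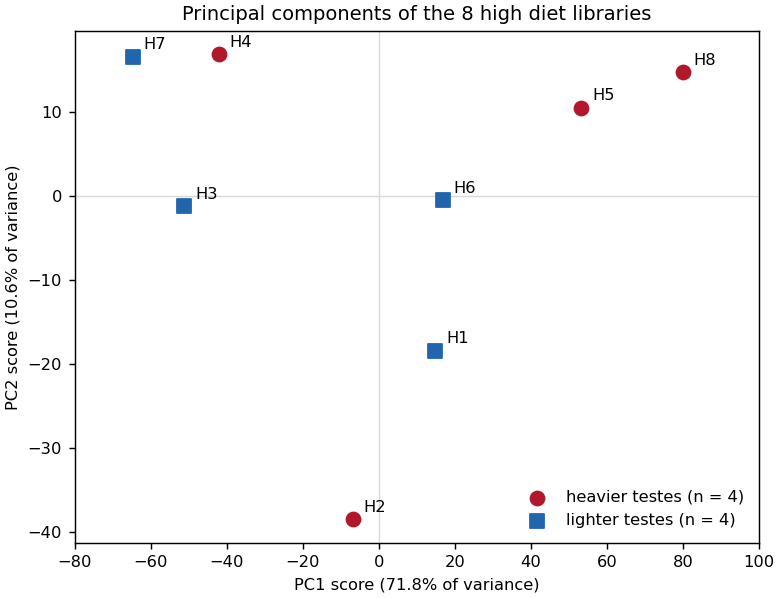
Scores of the 8 high diet libraries on the first (horizontal axis) and second (vertical axis) principal components of log2(scaled CPM + 1), with heavier testes as red circles and lighter testes as blue squares. Each class spreads over most of the first axis, from −42.0 to 80.0 for the heavier and from −64.7 to 16.8 for the lighter testes, and H2 is lowest on the second.

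Genes of germ cells had somewhat higher means in the heavier testes, and none of them passed the test. The spindle and cilium lists are counted here among the germ cell lists, although such genes are not confined to germ cells. All 17 tested genes of meiotic synapsis and crossover were higher, with a median difference of 0.30, and so were all 14 genes of germ cell RNA regulation (0.29), all 39 of the sperm tail, axoneme and cilium (0.37), all 30 of the mitotic spindle and kinetochore (0.34) and the 4 of germ cell energy metabolism (0.33). Of 18 genes of the acrosome and sperm head, 16 were higher (0.45). None of these genes reached an unadjusted p under 0.05, against 0.733% of all genes, and none had classes that did not overlap. The median correlation with PC1 was between 0.88 and 0.95 in each list. Members thus rose and fell together across the sheep, and their counts are not separate observations. The 1568 tested genes with a symbol, from which these lists are drawn, had a median of 0.18, with 967 higher and 601 lower. On library totals without TMM factors the median of all genes moved to −0.10, a shift of −0.14, and the medians of these germ cell lists fell to between 0.14 and 0.31 without changing sign. With the library total as a covariate they lay between 0.05 and 0.16, and the meiotic genes were then 10 higher and 7 lower.

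The sizes of these medians depended on single sheep in both classes. The sum over the meiotic genes was 5119 in H8, 1291 in H2, 3694 in H5 and 2420 scaled CPM in H4, against 2389 in H1, 1468 in H3, 3498 in H6 and 2106 in H7. H8 and H5 held the highest sums, but H2, the second heaviest, held the lowest of all. The sum over the sperm tail genes ran in the same way, from 8375 in H2 to 31150 in H8 in the heavier class and from 9210 in H3 to 19471 in H6 in the lighter class. Without H8 the medians of the 6 germ cell lists lay between 0.02 and 0.13, and 9 meiotic genes were higher and 8 lower. Leaving out H3, of the lighter class, brought the meiotic median to 0.11 with 11 higher and 6 lower, and leaving out H7 or H5 brought it to 0.18 or 0.20. Without H2 or H6 it was 0.54 or 0.50, with all 17 higher.

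Single genes ran as these sums did. DDX4, an RNA helicase of the germ line, was 1222, 543, 1253 and 634 scaled CPM in H8, H2, H5 and H4. In H1, H3, H6 and H7 it was 863, 509, 935 and 558. H8 and H5 were the highest and H3 the lowest, with H2 and H4 below H1 and H6. The difference was 0.30 (95% interval −0.50 to 1.10, limma unadjusted p = 0.422).

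HORMAD1, which marks unsynapsed meiotic chromosomes, had the largest difference of the meiotic list. Its levels were 711, 134, 418 and 185 scaled CPM in H8, H2, H5 and H4 and 255, 142, 293 and 142 in H1, H3, H6 and H7, so H2 was the lowest of all. The difference was 0.57 (95% interval −0.56 to 1.70), and MEIOB, a meiotic recombination factor, had the smallest at 0.10. SYCP3, of the synaptonemal complex, differed by 0.46, and BOLL and YTHDC2, regulators of germ cell RNA, by 0.49 and 0.17. In the later stages, CAPZA3, an actin-capping subunit of spermatids, differed by 0.70 (95% interval −0.29 to 1.68), SPATA17 by 0.70 (−0.16 to 1.56), the sperm lactate dehydrogenase LDHC by 0.44 and the sperm mitochondrial ADP/ATP carrier SLC25A31 by 0.16. FSIP2, of the fibrous sheath of the sperm tail, ranged from 1107 in H2 to 8416 scaled CPM in H8, both of the heavier class, and differed by 0.14. DPY19L2, which anchors the acrosome to the nucleus, was at 444 to 937 in the heavier and 616 to 833 in the lighter testes, with a difference of −0.18. Of the spindle genes, OIP5 differed by 0.56 and SKA3 by 0.06. The list of 15 spermatogonial markers had no member with an identifier, so these earliest germ cells were not analysed here.

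**Figure D4:**
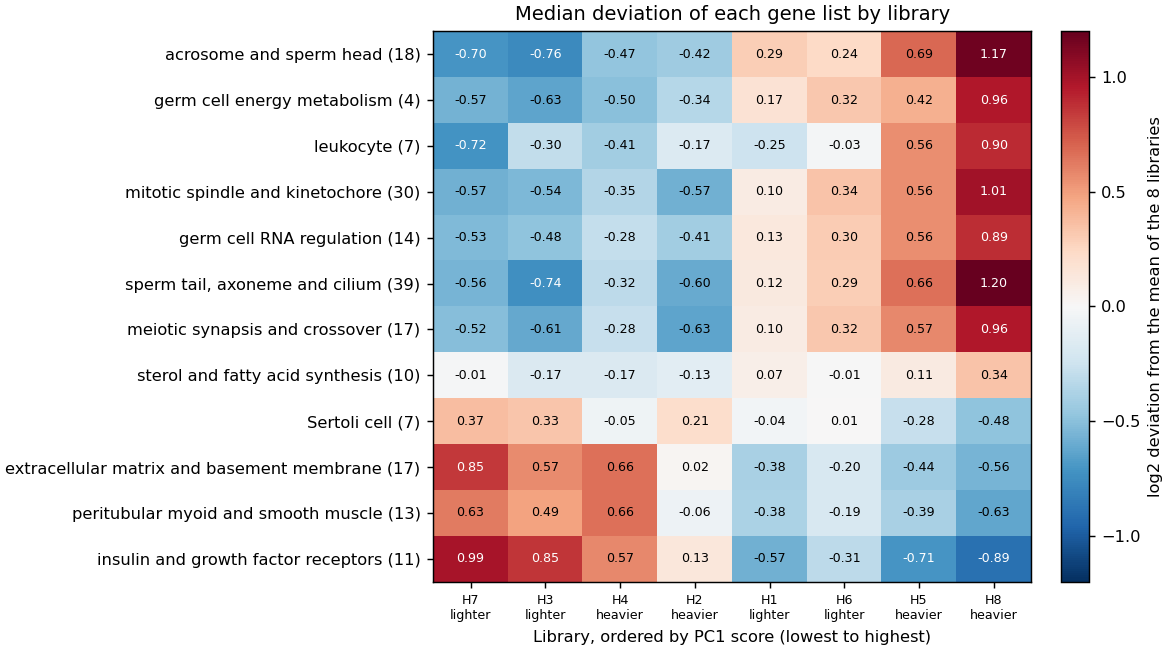
Median log2 deviation of each gene list from the mean of the 8 libraries (colour and printed value), with libraries ordered by their score on the first principal component and the number of tested genes in brackets. The short Leydig and endothelial lists are not shown. Germ cell lists are highest in H8 and H5 and myoid, matrix and receptor lists are highest in H7, H3 and H4, so the heavier class fills the upper end of the order and 2 places in its lower part.

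Genes of the cells around the tubules ran the other way. All 13 tested genes of peritubular myoid cells and smooth muscle were lower in the heavier testes, with a median difference of −0.32, and none reached an unadjusted p under 0.05, against 1.71% of all genes. MYH11, the smooth muscle myosin, was 55.0, 82.2, 57.9 and 222 scaled CPM in H8, H2, H5 and H4. In H1, H3, H6 and H7 it was 70.2, 140, 89.2 and 191. H4 held the highest level of all 8 sheep, H7 and H3 followed, and the other heavier testes held 3 of the 4 lowest levels. The difference was −0.38 (95% interval −1.43 to 0.67). SMTN, a smooth muscle cytoskeletal protein, had the lowest difference of the list at −0.83 (95% interval −2.15 to 0.48), CALD1, which binds actin and tropomyosin, the highest at −0.19, and DES, the muscle intermediate filament, was at −0.32. The sum over the list was 233 to 750 scaled CPM in the heavier and 327 to 766 in the lighter testes. Its members also varied together, with a median correlation with PC1 of −0.91.

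Of 17 genes of the extracellular matrix and basement membrane, 12 were lower and 5 higher, with a median of −0.23. At an unadjusted p under 0.05, ADAMTS6 was higher (1 of 17, against 0.733% of all genes) and LTBP4 and COL18A1, a basement membrane collagen, were lower (2 of 17, against 1.71%). The difference of COL18A1 was −0.87 (limma unadjusted p = 0.0443). Their sum was 441 to 733 scaled CPM in the heavier and 424 to 768 in the lighter testes, so the classes covered much the same range. Leaving out 1 sheep at a time, 12 or all 13 myoid genes were lower, with medians from −0.70 without H4 to −0.14 without H8. Without both H5 and H8, a choice made after seeing the data, 7 were higher and 6 lower (median 0.08). The matrix median ran from −0.65 without H4 and −0.61 without H1 to 0.01 without H8.

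Sertoli cell genes were divided. Of 7 tested, 2 were higher and 5 lower, with a median of −0.17. FSHR, the receptor through which follicle-stimulating hormone reaches Sertoli cells, was 49.1, 36.2, 47.0 and 38.2 scaled CPM in H8, H2, H5 and H4, and 27.8, 34.5, 36.2 and 32.9 in H1, H3, H6 and H7. Every heavier testis was above every lighter one, H2 only narrowly above H6, and no other listed gene of a somatic cell had separate classes, against 0.566% of all genes in that direction. The difference was 0.36 (95% interval −0.12 to 0.84, limma unadjusted p = 0.124). CLDN11, the claudin of the tight junctions between Sertoli cells, was 69.4, 71.3, 72.9 and 43.4 scaled CPM in H8, H2, H5 and H4, and 75.03, 44.4, 81.5 and 48.1 in H1, H3, H6 and H7. H4, H3 and H7 were low and the other 5 sheep lay together, and the difference was 0.06 (95% interval −0.57 to 0.70). WT1, a Sertoli transcription factor, differed by −0.21 (95% interval −0.89 to 0.48), and CYP26B1 was the lowest of the list.

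Markers of the remaining cell types were few. Of the Leydig cell list only STAR, which brings cholesterol into mitochondria, and PBR, a mitochondrial cholesterol-binding protein, were tested, and the steroidogenic enzymes had no identifier. STAR was 37.2, 67.5, 27.9 and 18.4 scaled CPM in H8, H2, H5 and H4 and 30.8, 14.4, 35.9 and 53.2 in H1, H3, H6 and H7, so H2 was the highest of all and H4 the lowest but for H3. The difference was 0.15 (95% interval −0.87 to 1.16), and that of PBR was −0.30. Of 7 leukocyte genes, 5 were higher and 2 lower, with a median of 0.57. All 5 that were higher (AMICA1, CD28, CD69, EMR3 and FCGR1A) had their highest levels in H8 and H5, as the germ cell lists did, with AMICA1 at 80.1 in H8 and 91.3 in H5 and at most 37.0 scaled CPM elsewhere. PTPRC, the common leukocyte antigen CD45, was 15.5, 14.7, 18.1 and 14.7 scaled CPM in H8, H2, H5 and H4, and 10.7, 18.2, 15.8 and 30.8 in H1, H3, H6 and H7. Apart from H7 its levels were close together, and the difference was −0.15 (95% interval −0.84 to 0.53). TAGAP, a signalling protein of T cells, was the other lower gene at −0.63. Of the endothelial list, CALCRL and RAMP1, which together form a peptide hormone receptor of vessels, differed by 0.43 and 0.37.

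The receptors for insulin and growth factors and their partners formed the list with the lowest median, −0.45. All 11 tested members were lower in the heavier testes, and none reached an unadjusted p under 0.05, which 1.71% of all genes did in that direction. GAS6, a ligand of the TAM receptors that Sertoli cells use in clearing dying germ cells, was 4.88, 11.5, 1.82 and 4.93 scaled CPM in H8, H2, H5 and H4, and 6.30, 13.8, 7.83 and 15.1 in H1, H3, H6 and H7. H2 stood among the lighter testes and the other 3 heavier ones were below all of them, with a difference of −0.91 (95% interval −1.92 to 0.10). INSR, the insulin receptor, was 5.59, 7.66, 8.65 and 14.1 scaled CPM in H8, H2, H5 and H4 and 6.55, 11.7, 6.05 and 12.5 in H1, H3, H6 and H7. It was highest in H4, H7 and H3 and its difference was −0.03 (95% interval −0.79 to 0.72). The sum over the list was 143, 265, 174 and 334 scaled CPM in H8, H2, H5 and H4 against 169, 398, 198 and 428 in H1, H3, H6 and H7. H3, H7 and H4 held the highest sums. The members varied together, with a median correlation with PC1 of −0.915, so their shared direction is not a set of separate observations. The list's median was −0.79 without H4, −0.72 without H1 and −1.09 with the 3 heaviest against the 3 lightest testes, and −0.18 without H7 and −0.21 without H8.

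The 10 genes of sterol and fatty acid synthesis did not share a direction, with 6 higher, 4 lower and a median of 0.11, which was −0.02 on library totals. MSMO1 and CYP51A1, of the sterol pathway, differed by 0.47 and 0.46, whereas SREBF1, a transcription factor of lipid synthesis, and FASN, the fatty acid synthase, both differed by −0.95. SREBF1 was at 0.849 in H8 and 11.8 in H4 within the heavier class, and at 3.88 to 19.7 scaled CPM in the lighter class. H3 and H7 lay above every heavier testis, H3 only narrowly above H4.

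**Figure D5:**
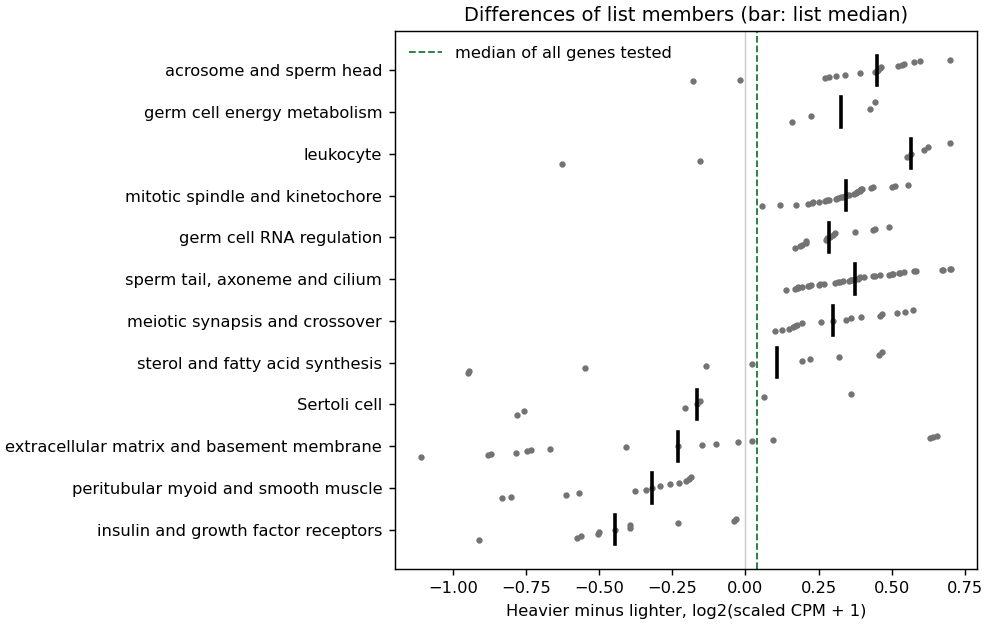
Log2 difference between heavier and lighter testes (horizontal axis) for each tested member of each gene list (grey points), with list medians as black bars and the median of all genes tested as a dashed line. The short Leydig and endothelial lists are not shown. The germ cell lists sit mostly between 0 and 0.70 and the myoid and receptor lists below 0, and of all members shown only ADAMTS6, CYP26B1, LTBP4 and COL18A1 had an unadjusted p under 0.05 in limma.

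The same split was made in the 8 low diet sheep, and the differences were compared between diets with an interaction term in limma over all 16 libraries. Of 11148 genes, 0% passed an adjusted p under 0.1 (smallest adjusted p 1.00), and 71 (0.637%) had an unadjusted p under 0.05, of which 31 were more positive in well-fed sheep and 40 more negative. NRIP3 differed by 1.72 in well-fed and by 0.11 in underfed sheep, an interaction of 1.62 (limma unadjusted p = 0.0269). ENSOARG00000023941 differed by 3.55 in well-fed and by −1.07 in underfed sheep, an interaction of 4.61 (limma unadjusted p = 0.0354). ENSOARG00000003127 differed by −1.08 and 0.31, with the smallest interaction p of the named genes (limma unadjusted p = 0.00835). CACNA1S had an interaction of −2.46 (limma unadjusted p = 0.0252) and C7 of 1.67 (limma unadjusted p = 0.0313). That of ENSOARG00000024340 was 3.38 (limma unadjusted p = 0.0486). For CYP26B1 the differences were −0.78 and 0.08 (limma unadjusted p = 0.0717). All of these genes were named for their small p in the same high diet libraries. A smaller difference in underfed sheep could thus be foreseen, and their interaction p is no evidence of a difference between diets. The germ cell lists had medians between 0.29 and 0.46 in well-fed and between −0.08 and 0.17 in underfed sheep, and the myoid list had −0.32 and −0.24. None of these list members had an interaction with an unadjusted p under 0.05.

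The number of genes at an unadjusted p under 0.05 depended on single sheep and on how the weights entered. Without H4 it was 1819, without H3 it was 52, and leaving out H5 or H8 gave 57 or 75. With the 3 heaviest against the 3 lightest testes, which leaves out H4 and H1, it was 2426 (smallest limma adjusted p 0.192), and with the rank of testis weight as a number it was 2554 (smallest limma adjusted p 0.205). Like the count without H4, these were larger shares of the 10783 genes than the threshold passes on average without any difference. The 263 genes of the main split were a smaller share.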

How the data were processed

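Testicular RNA of 16 sheep was sequenced with 1 library per sheep. Per the study's methods and the submitters' processing notes, reads were aligned to Oar_v3.1 with TopHat2 (version 2.0.10) and counted per Ensembl gene with htseq-count, and the deposited values are CPM, the authors' counts divided by the library total, for all genes. The diet and number of each sheep came from the labels, and testis weight was taken from the study's table of traits and used only to rank the sheep. The classes, the gene lists and the rule for named genes were chosen with earlier results of these data known.

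Dividing each CPM value by the value of 1 read gave whole reads (100% of values, tolerance 0.01 reads), and these were used in alternative count tests. The value of 3 reads in a library marks its floor, which covers counting error only. For the main test, log2(CPM divided by TMM factor + 1) of genes with more than 5 CPM in 4 or more of the 8 high diet libraries was compared with limma (version 3.58.1, trend on) and Benjamini-Hochberg adjustment. TMM factors came from edgeR (version 4.0.16). A gene was called at an adjusted p under 0.1 and a ratio of mean CPM above 1.5. Single values of libraries were compared with exact permutation tests (70 assignments). The replicates are separate sheep.

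Named genes are, in each direction, the 10 with a symbol of smallest p and 2 identifiers without one, the highest and lowest member of each of 15 lists, and the defining markers of each cell type. Symbols came from the study's lists of genes differing between diets, and 2 that had been turned into dates were dropped. No genome or sequence was used here. Alternatives were other scaling, pseudocount, filters, criteria, splits, covariates, the edgeR quasi-likelihood test, DESeq2 (version 1.42.0), a replicate block and leaving out each sheep. Those without H5 and H8 and with PC1 as a covariate were added after seeing the data. The test across genes was tested on simulated data (R 4.3.3, Python 3.11.15, numpy 2.4.6, pandas 2.3.3, scipy 1.17.1, matplotlib 3.10.9). Simulated reads were drawn for each gene independently. They held no component shared across genes such as PC1, so that check does not cover its effect on the test.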

Additional observations from a re-analysis of the deposited data

Results flagged for a closer look

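In 126 groups of 4 sheep (each named gene and library measure in each class), 9 had 1 sheep far from the other 3, where chance flags about 1 in 20 groups. Among the lighter testes, H1 had the lowest DTX3L at 2.60 scaled CPM, against 12.8 to 14.5 in the other 3, and the lowest DPY19L2 at 616, against 806 to 833. H6 had the highest ZNF572 at 134, against 56.2 to 62.5, and the highest ZNF613 at 120.2, against 82.1 to 88.5 in the other lighter testes. Among the heavier testes, H4 had the highest MYH11 at 222 scaled CPM, against 55.0 to 82.2, and the lowest CLDN11 at 43.4, against 69.4 to 72.9. H5 had the lowest MARCKSL1 at 6.22, against 11.2 to 11.7, and H2 the highest ENSOARG00000003127 at 18.3, against 10.6 to 10.9 scaled CPM. On the second principal component H2 scored −38.5, against 10.5 to 16.8 in the other heavier testes.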

How the results depend on the processing

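No gene was called under any alternative run except DESeq2, which called 2. Each class held 4 sheep, and 71.8% of the variance lay on PC1. Whether either limited the calls was not tested. Counts at an unadjusted p under 0.05 moved with many choices, but little with a pseudocount of 0.1 CPM (77 higher and 179 lower). Against 79 higher and 184 lower genes, there were 45 and 159 on library totals, 184 and 191 with DESeq2 and 96 and 132 with edgeR. Higher and lower genes numbered 221 and 530 without a filter, 122 and 279 with CPM above 1, 1059 and 1495 with the rank of weight, 607 and 1819 with 3 against 3 sheep and 22 and 45 with the library total as a covariate. With PC1 as a covariate, 127 were higher and 154 lower. Without H5 and H8, chosen after seeing the data, they were 26 and 36, and leaving out each sheep in turn gave 19 to 401 higher and 33 to 1418 lower, the most without H4 (401 and 1418) and the fewest without H3 (19 and 33). The cause was not tested.

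Across gene lists, with 3 against 3 sheep the germ cell medians rose to between 0.41 and 0.73, with 15 meiotic genes higher and 2 lower. The leukocyte median was 0.89 in that split, and the medians were −0.55 for Sertoli cells, −0.90 for myoid cells and −0.95 for the matrix. H5 and H8 were left out because they scored highest on PC1. The germ cell lists follow PC1 and the myoid and receptor lists run against it, so the choice itself sets the direction of these changes. Without these sheep the medians were −0.32 for meiotic genes, −0.25 for germ cell RNA regulation and −0.14 for leukocytes. The germ cell lists all turned negative, and medians were 0.08 for myoid cells, 0.17 for the matrix and 0.13 for receptors. PC1 was computed from these same libraries and genes. Entering it as a covariate removes differences that lie along it, so changes of sign in that fit are no separate check. With PC1 as a covariate the germ cell medians lay between −0.21 and −0.11. The medians were then 0.016 for myoid cells, 0.12 for the matrix, 0.13 for receptors and 0.0601 for leukocytes.

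None of the named genes that changed sign had been called. Changes of sign without H5 and H8 or with PC1 as a covariate carry the limits given above for the lists. Without H5 and H8 the log2 differences were HORMAD1 −0.32, MEIOB −0.34, BOLL −0.18, YTHDC2 −0.16, FSIP2 −0.78, LDHC −0.22, SLC25A31 −0.23, SKA3 −0.40, SMTN 0.0806, AMICA1 −0.48, TAGAP 0.13, CALCRL −0.0084, INSR 0.23, CLDN11 −0.11, WT1 0.10, MYH11 0.25, DDX4 −0.24 and SYCP3 −0.26. With PC1 as a covariate they were HORMAD1 −0.10, MEIOB −0.27, BOLL −0.0750, YTHDC2 −0.0602, FSIP2 −0.47, LDHC −0.13, SLC25A31 −0.19, SKA3 −0.37, SMTN 0.016, AMICA1 −0.11, TAGAP 0.0601, MSMO1 −0.047, INSR 0.34, CLDN11 −0.21, WT1 0.14, MYH11 0.25, DDX4 −0.12 and SYCP3 −0.11. With the library total as a covariate they were MEIOB −0.044, FSIP2 −0.35, SKA3 −0.054, STAR −0.065, INSR 0.091 and CLDN11 −0.0397, and on library totals MEIOB −0.0398, FSIP2 −0.00327, SKA3 −0.086 and CLDN11 −0.076. PBR was 0.026 with 3 against 3 sheep and 0.00897 per rank of weight. Leaving out each sheep in turn gave MEIOB −0.0902 to 0.25, FSIP2 −0.27 to 0.63, SLC25A31 −0.013 to 0.29, SKA3 −0.23 to 0.17, STAR −0.25 to 0.37, INSR −0.34 to 0.15, CLDN11 −0.12 to 0.21 and PTPRC −0.38 to 0.069.

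No paired analysis was possible for heavier against lighter testes because the classes share no replicate numbers. Between diets, same-numbered sheep had no common sign of correlation, with values from −0.66 to 0.73 over the 8 numbers. Correlations were 0.65 and 0.73 for numbers 1 and 4, 0.04 for number 5 and negative for the others. Blocking on the sheep's number left 37 genes in place of 71 with an unadjusted p under 0.05 for the interaction (replicate block), and 0 were called. Leaving out each of the 16 sheep gave 29 (without H3) to 370 (without sheep 7 of the low diet).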
